A study of Mus musculus with 21 samples.

Results

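The enzymes through which dendritic cells use retinoids, tryptophan and other amino acids to restrain T cells were described through 9 genes: Aldh1a2, Rdh10, Ido1, Ido2, Il4i1, Kynu, Kmo, Arg1 and Arg2. They were taken by symbol from the deposited expression values, which hold 37734 genes, and all 9 were present. The values were RNAseq read counts of conventional dendritic cells (cDC) of C57BL/6 mice aged 6 to 8 weeks, with no genetic change and no treatment in any group. Cells of several mice were pooled, enriched with CD11c beads and sorted, so a sample is a pool and not a mouse. The 6 groups, as the labels name them, were SP1Minus (immature cDC1 of the spleen, 5 libraries), TH1Minus (immature cDC1 of the thymus, 4 libraries), TH1Plus (mature cDC1 of the thymus, 3 libraries), SP2Minus (immature cDC2 of the spleen, 3 libraries), TH2Minus (immature cDC2 of the thymus, 3 libraries) and TH2Plus (mature cDC2 of the thymus, 3 libraries). Sorted cDC1 were CD24+ CD11b- and cDC2 were CD24- CD11b+, and mature cells were taken as CCR7+ Esam+ and immature cells as CCR7- Esam-. No mature splenic group was part of these samples.

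Dendritic cells can quiet T cells by changing the small molecules around them. Retinol dehydrogenases such as Rdh10 make retinal, and the retinal dehydrogenase Aldh1a2 turns retinal into retinoic acid, which favours regulatory T cells and the homing of lymphocytes to the gut. Ido1 and its neighbour Ido2 open the tryptophan ring to start the kynurenine route, in which Kmo hydroxylates kynurenine and Kynu cleaves it and its hydroxylated product. Il4i1 is a secreted oxidase of phenylalanine, tryptophan and other aromatic amino acids. Arg1 in the cytosol and Arg2 in mitochondria split arginine into ornithine and urea. In the thymus, cDC present self antigens to developing T cells, and mature cDC carry the chemokine receptor CCR7.

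The unit throughout is the normalized read count, the number of read pairs assigned to a gene divided by the size factor of its library. Libraries held 14266867 to 40119669 reads assigned to genes, as recovered from the values, which is not the number of reads sequenced. The SP1Minus libraries 4 and 5 differed far less than any other pair within a group (chi-square per degree of freedom 2.44, against 20.4 to 176). Their labels share the lane, the index and the number that opens the library description. Their mean was used as 1 sample, which left 20 samples. TH1Minus libraries 3 and 4 share these labels in the same way but differed more (92.8), and were kept as separate samples. Whether they are independent is not known. Subset markers mostly followed the labels. The cDC1 receptor Xcr1 averaged 12567 in splenic and 19098 in immature thymic cDC1 against 46.9 and 235 in the matching cDC2. The cDC2 receptor Sirpa averaged 391.9 in mature cDC1 against 7413 in mature cDC2. The cDC1 marker Batf3 was not called between subsets in spleen or in mature thymus (4998 in cDC1, 4532 in cDC2). With maturation, Xcr1 fell to 440 in cDC1 and the cDC1 marker Irf8 rose from 2467 to 13787 in cDC2. Of 4 general cDC markers, 2 (Itgax and H2-Ab1) were called lower with maturation in both subsets. The sorting marker Ccr7 averaged 714 in immature and 110230 in mature thymic cDC1, and 3419 and 99928 in thymic cDC2. Of 5 mature dendritic cell markers, 3 were called higher in immature thymic cDC2 than cDC1 (median 2.27), beside 11.0% of all genes. The difference in maturation effect, cDC2 minus cDC1, was called negative for 3 of the 5 (median -2.41), where 13.6% of all genes were called. Their part in the differences of members between subsets was not tested. Markers of other cell types moved with the groups. With maturation, 5 of 5 tested T cell and thymocyte markers rose in both subsets (all genes 21.3% in cDC1 and 18.6% in cDC2). The summed level of the list of 6 was 130 to 214 in TH1Minus and 1140 to 1866 in TH1Plus. In cDC2 the sum was 149 to 237 in TH2Minus and 614 to 922 in TH2Plus. Ptcra was at 0 in TH1Minus. Over the same steps the summed level of 6 monocyte and neutrophil markers went from 7143 to 9635 down to 279 to 479 in cDC1 and from 18486 to 22618 down to 531 to 1219 in cDC2, with Retnlg at 0 in every group. That sum was carried by Plac8 and Ccr2 (6393 and 1597 in TH1Minus, with Ccr2 at 13.0 in TH1Plus), while the neutrophil markers S100a8 and S100a9 averaged 0.78 and 0 in TH1Minus and 11.0 and 8.54 in TH1Plus. The sum of 4 epithelial markers was 40.4 to 152 in splenic groups, 573 to 704 in TH1Minus and 3482 to 3812 in TH2Minus. All 4 were called higher in thymus in both subsets (all genes 4.26% in cDC1 and 8.30% in cDC2). The sum of 8 macrophage markers was 602 to 968 in SP1Minus, 983 to 1272 in TH1Minus, 5863 to 8505 in TH1Plus, 5910 to 6707 in SP2Minus, 7094 to 10559 in TH2Minus and 5658 to 18634 in TH2Plus, with none at 0. In TH1Plus that sum was mostly Vcam1 (mean 6740, against 695 in TH1Minus). With maturation in cDC1, 2 of the 8 rose and 3 fell, with a median of -0.98 (all genes 21.3% and 24.5%). From spleen to thymus in cDC2, where 8.30% of all genes were called higher, 4 of 4 tested plasmacytoid dendritic cell markers rose (Siglech 86.4 to 889, Tcf4 2486 to 5899). So did 3 of 8 macrophage markers and 3 of 5 T cell markers. Their part in the results was not tested. In these sorted bulk samples, a change in the share of cells that express a gene and a change in RNA per cell cannot be told apart.

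**Figure D1:**
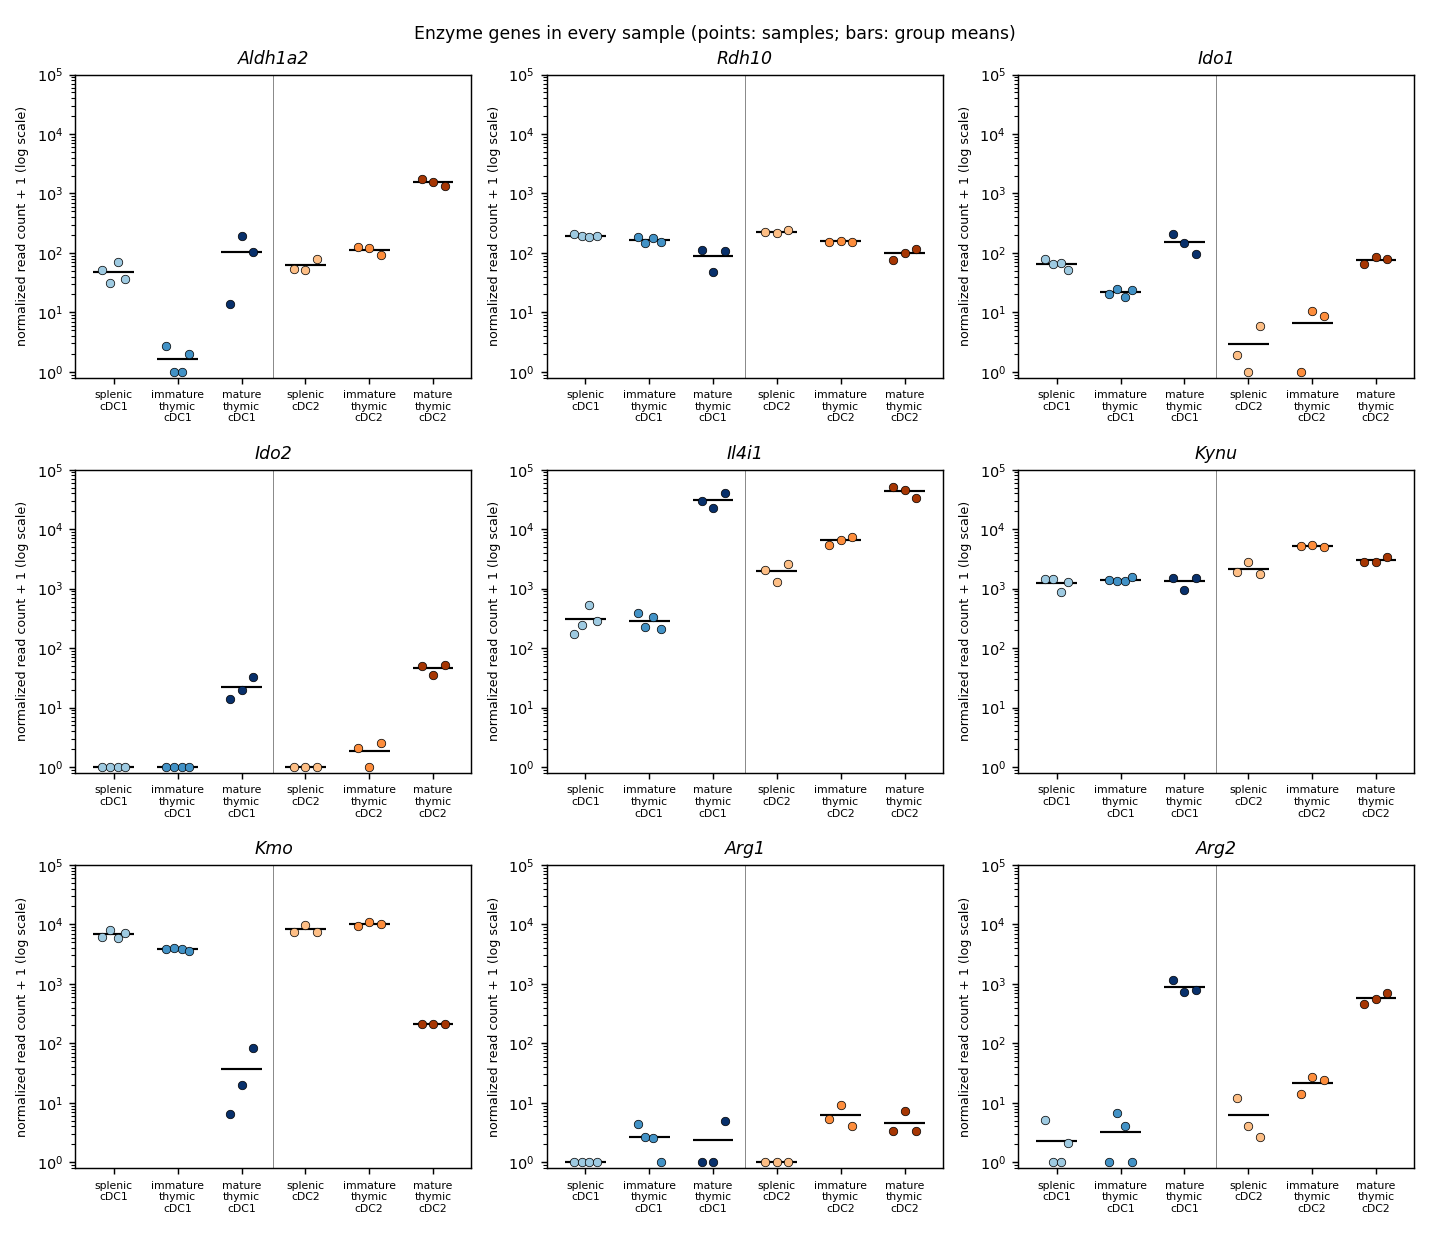
Normalized read count plus 1 (log scale) of the 9 enzyme genes in each of the 20 samples, by group on the horizontal axis, where points are samples and bars are group means. Il4i1, Arg2, Ido2 and Ido1 lie higher and Kmo lower in both mature groups than in the matching immature thymic group, with no overlap, while Arg1 stays below 10 everywhere.

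A gene was counted as changed, or called, when limma on log2(value + 1) gave an adjusted p under 0.1 (Benjamini-Hochberg) together with a log2 fold change beyond 1 in either direction. The adjustment ran over the 14970 genes that reached 10 in 3 or more samples. Fold changes from limma are given on that log2 scale, which understates the change of low genes, with their standard error (SE). Of the 9 members, 8 were tested and Arg1 was too low. Maturation moved most of the tested members: in thymic cDC1, 5 rose and 1 fell, where 21.3% of all genes tested were called higher and 24.5% lower, and in thymic cDC2, 5 rose and 1 fell, where 18.6% of all genes were called higher and 17.0% lower. The genes that rose in both subsets were Aldh1a2, Ido1, Ido2, Il4i1 and Arg2, and the gene that fell in both was Kmo. The median log2 fold change over the 8 members was 3.56 in cDC1 and 3.26 in cDC2, beside -0.04 and 0.04 over all genes tested. Ido2 (4.39 in cDC1 and 4.72 in cDC2) enters both the counts and the medians. It was tested only because it is expressed in the mature groups, so it had to differ. It therefore lends neither the counts nor the medians support, and it lies above both medians. The maturation and tissue comparisons of a subset share their immature thymic samples.

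Aldh1a2 (ENSMUSG00000013584; mm10, chr9:71215789-71296243, plus strand, 14 exons), the retinal dehydrogenase among the members, ranged widely between groups. It was close to absent in immature thymic cDC1, at 1.69, 0, 0 and 1.01 in the 4 samples, which came from 3 reads in all. Splenic cDC1 read 51.5, 30.6, 70.2 and 35.7, and mature thymic cDC1 read 12.9, 190.6 and 103.9. All samples of both those groups lay above immature thymic cDC1, and the mature samples were widely spread, with replicate 1 below every splenic sample.

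In the cDC2 lineage the gene was on throughout. Splenic cDC2 read 52.2, 51.2 and 78.2, immature thymic cDC2 read 123.8, 121.9 and 91.9, and mature thymic cDC2 read 1719.7, 1569.5 and 1356.3. The 3 groups did not overlap, and mature thymic cDC2 stood above every other sample of the series. In the order of group means, TH2Plus (1549 ± 183, SD, n = 3) was followed by TH2Minus (113 ± 17.9), TH1Plus (102 ± 88.9), SP2Minus (60.5 ± 15.3) and SP1Minus (47.0 ± 17.8), 4 groups of which each overlapped its neighbour, and then by TH1Minus.

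With maturation, Aldh1a2 rose by a log2 fold change of 5.42 ± 0.62 in cDC1 (adjusted p = 2.37e-07) and of 3.78 ± 0.66 in cDC2 (adjusted p = 8.72e-05). As a ratio of means the rise in cDC2 was 13.8-fold. In cDC1, where the immature group had 3 reads, the ratio was taken from the reads of each group summed and divided by its summed depth. It was 139.5, with a 95% counting interval of 47.2 to 681. The maturation effects of the subsets were not shown to differ (log2 difference -1.65 ± 0.91, adjusted p = 0.259), and the sign of that difference turned with a pseudocount of 8 (0.53). It was called by edgeR (-3.10, adjusted p = 0.0586), by DESeq2 (-3.36, adjusted p = 0.0166) and without the low TH1Plus replicate 1 (-2.76, adjusted p = 0.00663), which took the rise in cDC1 to 6.54.

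The difference between tissues in Aldh1a2 was not alike in the subsets. The log2 fold change from splenic to immature thymic cDC1 was -4.90 ± 0.58 (adjusted p = 3.67e-06; ratio of summed reads 59.7, counting interval 20.2 to 291.5), the only member called between these groups, where 4.26% of all genes were called higher in thymus and 4.52% lower. In cDC2 the thymic level was 1.86 times the splenic one, below the call (log2 fold change 0.90 ± 0.66, adjusted p = 0.389). The difference between these tissue effects was 5.80 ± 0.88 (adjusted p = 0.000306). Aldh1a2 was also higher in cDC2 than in cDC1 among immature thymic cells (6.21 ± 0.62, adjusted p = 1.94e-07; counting interval of the ratio of summed reads 52.8 to 758) and mature thymic cells (4.56 ± 0.66, adjusted p = 4.25e-05; 15.1-fold), and was not called in the spleen (0.40 ± 0.62, adjusted p = 0.739). The mature value was 3.44 without TH1Plus replicate 1 and 5.33 without replicate 2. Macrophage markers were also higher in cDC2. Of 8, 6 were called in the spleen, where Aldh1a2 was not, 6 in immature and 7 in mature thymic cells (all genes 9.93%, 11.0% and 14.6%). Their part in Aldh1a2 was not tested.

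The promoter of Aldh1a2 is shown because this gene had the sharpest contrast between subsets; those of Il4i1 and Kmo follow because they carried large opposite changes with maturation. For these 3 of the 9 members RefSeq (GRCm38.p6) gave a promoter, here the 250 bases before the start site on the plus strand, and the Il4i1 and Kmo windows lie inside the longer mm10 gene models used for position. Letters in capitals mark a match to any of 5 motifs searched on both strands.
Aldh1a2, chr9:71215539-71215788: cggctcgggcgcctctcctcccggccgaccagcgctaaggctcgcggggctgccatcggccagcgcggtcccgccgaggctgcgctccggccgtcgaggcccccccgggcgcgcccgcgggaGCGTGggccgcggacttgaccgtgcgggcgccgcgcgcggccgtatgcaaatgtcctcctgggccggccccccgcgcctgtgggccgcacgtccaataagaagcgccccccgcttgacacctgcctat
Il4i1, chr7:44836038-44836287: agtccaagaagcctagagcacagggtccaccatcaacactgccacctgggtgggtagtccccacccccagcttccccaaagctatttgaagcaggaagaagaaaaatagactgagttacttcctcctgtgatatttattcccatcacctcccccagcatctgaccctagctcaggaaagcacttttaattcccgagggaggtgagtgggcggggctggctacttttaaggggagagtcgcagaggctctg
Kmo, chr1:175631943-175632192: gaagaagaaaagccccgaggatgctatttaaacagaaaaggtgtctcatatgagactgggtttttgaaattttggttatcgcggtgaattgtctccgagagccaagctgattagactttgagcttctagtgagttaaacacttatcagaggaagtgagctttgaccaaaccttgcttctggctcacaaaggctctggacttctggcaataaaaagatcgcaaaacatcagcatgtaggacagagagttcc
The motifs were GAAANNGAA (IRF), TTCNNNGAA (STAT), GGGANNTTC (NF-kB), AGGTCA (a retinoic acid receptor half-site) and GCGTG (aryl hydrocarbon receptor). The only match was GCGTG in Aldh1a2, 128 to 124 bases before the start, and 32.4% of 32851 promoter windows held that motif. The search and the shares covered the whole RefSeq windows, which run 50 bases further, past the start. The shares were 8.56% for IRF, 8.30% for STAT, 3.94% for NF-kB and 16.3% for the retinoic acid receptor half-site.

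Rdh10 (ENSMUSG00000025921; chr1:16105774-16133734, plus strand, 6 exons) makes the retinal that Aldh1a2 uses, and it varied little. Splenic cDC1 read 210.0, 188.4, 185.6 and 189.7, immature thymic cDC1 180.8, 148.2, 176.3 and 154.6, and mature thymic cDC1 110.6, 46.8 and 105.5. Splenic cDC2 read 224.2, 219.3 and 237.9, immature thymic cDC2 152.6, 158.7 and 154.2, and mature thymic cDC2 76.0, 99.5 and 116.2. Every mature sample lay below every immature sample of the series, in both subsets.

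The maturation difference of Rdh10 was -0.998 ± 0.26 in cDC1 (adjusted p = 0.00293), which fell just short of the fold threshold, and -0.69 ± 0.28 in cDC2 (adjusted p = 0.0517). With TMM scaling the cDC1 value was -1.01 and was called. No tissue or subset comparison of Rdh10 was called, and the thymic to splenic ratio of means was 1.17-fold in favour of spleen in cDC1 and 1.46-fold in cDC2. In each subset the mean of Rdh10 was lowest and that of Aldh1a2 highest in the mature group.

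Ido1 (ENSMUSG00000031551; chr8:24584136-24597009, minus strand, 11 exons) catalyses the entry of tryptophan into the kynurenine route. Splenic cDC1 read 77.2, 64.1, 66.5 and 50.8, immature thymic cDC1 19.4, 23.3, 17.2 and 23.2, and mature thymic cDC1 206.5, 147.3 and 96.7. None of these groups overlapped. Splenic cDC2 read 0.92, 0 and 4.89, immature thymic cDC2 0, 9.37 and 7.79, and mature thymic cDC2 63.0, 84.2 and 79.3. In cDC2 the mature samples stood clear of both immature groups, which overlapped each other near 0.

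Ido1 rose with maturation in cDC1 by 2.74 ± 0.66 (adjusted p = 0.00134; 7.22-fold) and in cDC2 by 4.08 ± 0.71 (adjusted p = 7.42e-05; 13.2-fold). The difference between these effects was not called (1.34 ± 0.97, adjusted p = 0.405). Without TH2Minus replicate 1, the library without an Ido1 read, the rise in cDC2 was 2.99 and remained called. Ido1 ran lower in cDC2 than in cDC1 in the spleen (-4.86 ± 0.66, adjusted p = 9.81e-06; 33.4-fold, from 4 reads in all in splenic cDC2), where 9.93% of all genes were called higher and 6.70% lower in cDC2.

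It was also lower in cDC2 among immature thymic cells (-2.26 ± 0.66, adjusted p = 0.0162). That call was lost without TH2Minus replicate 1 (-1.18, adjusted p = 0.170) and within the lane 8 libraries (-1.21, adjusted p = 0.150). Among mature cells the mean was 1.99 times higher in cDC1 with no overlap of samples, below the call (-0.93 ± 0.71, adjusted p = 0.380). In cDC1 the thymic value was below the splenic one in every sample, by -1.59 ± 0.61, with an adjusted p of 0.110. It was called by edgeR (-1.62, adjusted p = 0.0441), by DESeq2 (-1.63, adjusted p = 0.000257) and with the sequencing lane as a covariate (-1.86, adjusted p = 0.0334).

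Ido2 (ENSMUSG00000031549; chr8:24531892-24576333, minus strand, 11 exons), the neighbour and paralog of Ido1 with weaker activity, was found in mature cells and hardly elsewhere. No read was assigned to it in any splenic library or in immature thymic cDC1, where 3 reads in a library would have given a value of 1.15 to 4.89. Immature thymic cDC2 read 1.07, 0 and 1.56, from 2 reads. Mature thymic cDC1 read 12.9, 19.1 and 32.0 and mature thymic cDC2 read 49.9, 34.8 and 51.8, so all mature samples lay above all immature ones and the mature cDC2 above the mature cDC1.

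The mature mean of Ido2 was at least 6.69-fold higher than the immature floor of 3 reads per library in cDC1. In cDC2 the ratio of summed reads over summed depth was 69.3, with a 95% counting interval of 18.9 to 576. Both maturation comparisons passed the test (adjusted p = 1.30e-07 and 2.40e-07), which the choice of tested genes favours. Mature cDC2 held 2.13 times the mean of mature cDC1, not called (1.13 ± 0.52, adjusted p = 0.124). No stretch of 50 bases was shared between the transcripts of Ido1 or Ido2 and those of any other gene.

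Il4i1 (ENSMUSG00000074141; chr7:44816387-44840809, plus strand, 9 merged exons), the secreted aromatic amino acid oxidase, reached the highest level of all members. Splenic cDC1 read 169.9, 242.6, 537.5 and 286.9 and immature thymic cDC1 387.7, 225.7, 333.9 and 208.2, which overlapped. Mature thymic cDC1 read 29625, 22671 and 39965. Splenic cDC2 read 2089, 1276 and 2566, immature thymic cDC2 5477, 6691 and 7302, and mature thymic cDC2 52014, 45466 and 33940. The cDC2 groups did not overlap one another, and both mature groups overlapped each other while standing above all immature samples.

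Il4i1 rose with maturation by 6.74 ± 0.32 in cDC1 (adjusted p = 4.62e-13; 106.5-fold) and by 2.74 ± 0.34 in cDC2 (adjusted p = 1.31e-06; 6.75-fold). The effect was larger in cDC1, with a difference of -4.00 ± 0.47 (adjusted p = 8.82e-06), in a comparison in which 13.6% of all genes were called. In the thymus, immature cDC2 stood 22.5-fold above immature cDC1 (4.52 ± 0.32, adjusted p = 1.32e-09), where 11.0% of all genes were called higher and 5.42% lower in cDC2. Mature cDC2 and cDC1 were 1.42-fold apart in their means and not called (0.53 ± 0.34, adjusted p = 0.292), where 14.6% of all genes were called higher and 4.36% lower. Of 5 mature dendritic cell markers, 3 were also called higher in immature thymic cDC2, as given above. Their part in Il4i1 was not tested.

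Splenic cDC2 likewise exceeded splenic cDC1 in Il4i1 (2.74 ± 0.32, adjusted p = 1.23e-06; 6.39-fold). The thymic level was above the splenic one in cDC2 (1.76 ± 0.34, adjusted p = 0.000794; 3.28-fold), where 8.30% of all genes were called higher and 5.87% lower in thymus. In cDC1 the tissues gave nearly equal means (-0.02 ± 0.30, adjusted p = 0.991), and the difference between tissue effects was 1.78 ± 0.45 (adjusted p = 0.0233), in a comparison in which 4.98% of all genes were called.

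The Il4i1 values carry a limit of annotation. Of its 4080 merged exon bases, 3423 overlap exons of Tbc1d17 on the opposite strand, 97 overlap Nup62 on the same strand and 82 overlap Atf5 on the opposite strand. The strand setting of the authors' counting is not given in the sources used here, so how such reads were assigned is uncertain. Tbc1d17 ran at 568 ± 146 in immature and 621 ± 125 in mature thymic cDC1, and at 741 ± 50.9 and 410.0 ± 122 in thymic cDC2. Its mean was above that of Il4i1 in immature cDC1 of thymus (568 against 289) and spleen (675 against 309) and below it in the other groups. The part of such reads in the Il4i1 values was not tested. Atf5 went from 368 ± 116 to 619 ± 71.2 in thymic cDC1 and from 693 ± 122 to 1686 ± 389 in thymic cDC2.

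Kmo (ENSMUSG00000039783; chr1:175620381-175662116, plus strand, 17 merged exons) hydroxylates kynurenine and was the member lost with maturation. Splenic cDC1 read 6251, 7919, 5903 and 7261, immature thymic cDC1 3791, 3962, 3920 and 3622, and mature thymic cDC1 5.53, 19.1 and 84.0. Splenic cDC2 read 7310.2, 9868 and 7532, immature thymic cDC2 9249.6, 11096 and 10147, and mature thymic cDC2 210.4, 211.6 and 208.0. The lowest immature sample held 3622 and the highest mature sample 211.6.

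The fall of Kmo was -7.42 ± 0.47 in cDC1 (adjusted p = 3.64e-11; 105.7-fold) and -5.59 ± 0.50 in cDC2 (adjusted p = 1.53e-08; 48.4-fold). Mature cDC1 varied more than mature cDC2. Without TH1Plus replicate 3, the highest, the cDC1 value was -8.38, and without replicate 1 it was -6.53. The maturation effect was weaker in cDC2 by 1.83 ± 0.69 with an adjusted p of 0.0872, a call that was lost in 20 of 26 alternatives and was 0.93 (adjusted p = 0.254) by edgeR.

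Mature cDC2 held more Kmo than mature cDC1 (3.24 ± 0.50, adjusted p = 8.27e-05; 5.80-fold), and immature thymic cDC2 more than immature thymic cDC1 (1.41 ± 0.47, adjusted p = 0.0358; 2.66-fold). The latter call was lost without TH2Minus replicate 2 (1.34, adjusted p = 0.109) and within lane 8 (1.47, adjusted p = 0.187), although the groups did not overlap. Between tissues, thymic cDC1 had a mean 1.79-fold lower than splenic cDC1, not called (-0.83 ± 0.44, adjusted p = 0.289). The mature difference between subsets was 2.35 without TH1Plus replicate 1 and 4.20 without replicate 3.

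Kynu (ENSMUSG00000026866; chr2:43555329-43682715, plus strand, 16 merged exons), the kynureninase, stayed on in all groups. Splenic cDC1 read 1445, 1439, 883 and 1299, immature thymic cDC1 1396, 1363, 1320.1 and 1540.1, and mature thymic cDC1 1521, 964 and 1531. These 3 groups overlapped. Splenic cDC2 read 1903, 2778 and 1784, immature thymic cDC2 5154, 5525 and 5027, and mature thymic cDC2 2782, 2775 and 3369. Immature thymic cDC2 were the highest, apart from all other samples.

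Maturation left Kynu at -0.10 ± 0.19 in cDC1 (adjusted p = 0.684) and at -0.82 ± 0.20 in cDC2 (adjusted p = 0.00238), the latter below the fold threshold though the groups did not overlap. Kynu was higher in thymic than in splenic cDC2 (1.31 ± 0.20, adjusted p = 8.87e-05; 2.43-fold) and differed in this from cDC1 (difference 1.13 ± 0.27, adjusted p = 0.0156). That difference of 1.13 lost its call within lane 8 (1.17). It was higher in cDC2 than in cDC1 among immature thymic cells (1.90 ± 0.19, adjusted p = 2.07e-07; 3.73-fold) and mature ones (1.18 ± 0.20, adjusted p = 0.000266; 2.22-fold). Without TH1Plus replicate 2 the mature value was 0.96, under the fold threshold. In the spleen the difference was 0.76 ± 0.19 with an adjusted p of 0.00487, also under that threshold.

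Arg1 (ENSMUSG00000019987; chr10:24915221-24927484, minus strand, 7 exons), the cytosolic arginase of macrophages and liver, was at or near 0. No read fell on it in any splenic library. Immature thymic cDC1 read 3.38, 1.67, 1.56 and 0, mature thymic cDC1 0, 0 and 4.00, immature thymic cDC2 4.27, 8.04 and 3.12, and mature thymic cDC2 2.30, 6.26 and 2.35. The highest of these came from 12 reads. All thymic cDC2 samples, immature and mature, had reads and no splenic cDC2 sample did, but Arg1 was below the filter and was not tested.

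Arg2 (ENSMUSG00000021125; chr12:79130777-79156301, plus strand, 8 exons), the mitochondrial arginase, behaved otherwise. Splenic cDC1 read 4.12, 0, 0 and 1.12, immature thymic cDC1 0, 5.83, 3.12 and 0, and mature thymic cDC1 1161, 723 and 776. Splenic cDC2 read 11.0, 3.12 and 1.63, immature thymic cDC2 12.8, 26.1 and 23.4, and mature thymic cDC2 451, 562 and 698. The lowest of the 6 mature samples held 451 and the highest immature sample 26.1, and mature cDC1 lay above mature cDC2.

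Arg2 rose with maturation by 8.56 ± 0.71 in cDC1 (adjusted p = 2.10e-09) and by 4.75 ± 0.76 in cDC2 (adjusted p = 2.96e-05; 27.5-fold). In cDC1 the ratio of means was 396, on 9 reads in the immature group. The effect was larger in cDC1 (difference -3.81 ± 1.04, adjusted p = 0.0187). Immature thymic cDC2 stood 9.28-fold above immature thymic cDC1 (3.18 ± 0.71, adjusted p = 0.00205), and the mature subsets were not told apart by the test (-0.62 ± 0.76, adjusted p = 0.601). The part of the mature dendritic cell markers, given above, in these subset differences was not tested.

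Thymic cDC2 had more Arg2 than splenic cDC2 (2.04 ± 0.76, adjusted p = 0.0633). That call was lost in 6 of 19 alternatives, among them leaving out SP2Minus replicate 3 (1.57, adjusted p = 0.246), SP2Minus replicate 2 (adjusted p = 0.138), TH2Minus replicate 2 (adjusted p = 0.166) or TH2Minus replicate 3 (adjusted p = 0.167). Arg2 shares 285 exon bases with Vti1b on the opposite strand, which averaged 1272 and 2756 in immature and mature thymic cDC1 and 1137 and 2101 in thymic cDC2. Their part in Arg2 was not tested.

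**Figure D2:**
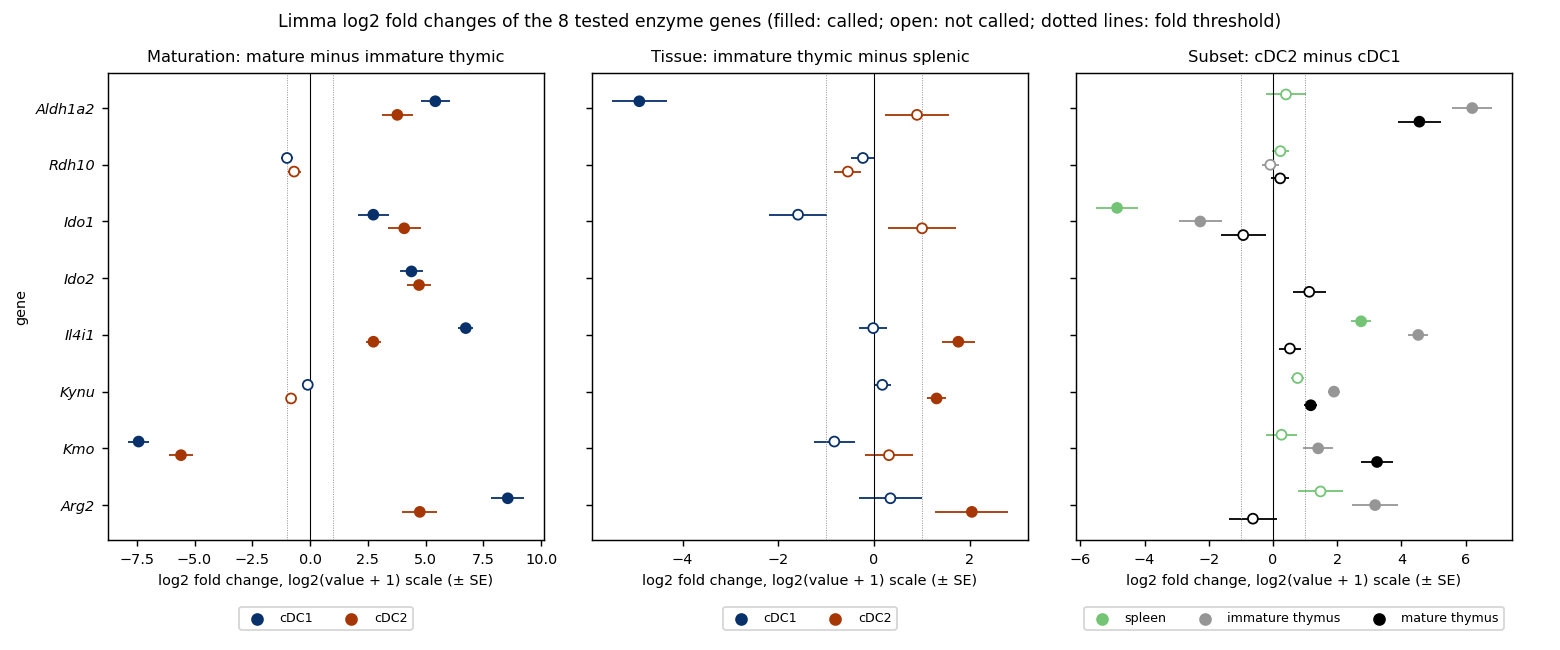
Log2 fold changes (limma, log2(value + 1) scale, bars ± SE) of the 8 tested genes with maturation, between tissues and between subsets, where filled points were called and dotted lines mark a log2 fold change of 1. Ido2 is drawn only where a mature group enters. Kmo lies at -7.42 and -5.59 with maturation, opposite to Arg2 at 8.56 and 4.75, while Aldh1a2 and Ido1 differ between subsets in opposite directions.

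By comparison, the calls therefore fell as follows. Thymic cDC2 had 3 members higher than splenic cDC2 (Il4i1, Kynu and Arg2, whose call depended on the setting; 8.30% of all genes higher and 5.87% lower), and thymic cDC1 had 1 lower (Aldh1a2; 4.26% and 4.52%). Against cDC1, cDC2 had 1 member higher and 1 lower in the spleen (9.93% and 6.70% of all genes), 5 higher and 1 lower among immature thymic cells (11.0% and 5.42%), and 3 higher among mature thymic cells (14.6%, with 4.36% lower). The maturation effect differed between subsets for Il4i1, Arg2 and Kmo (13.6% of all genes called), and the Kmo call was lost in 20 of 26 alternatives. The tissue effect differed for Aldh1a2, Il4i1 and Kynu (4.98% of all genes called), and the Kynu call was lost within lane 8. For Ido1 the difference in tissue effect was 2.59 ± 0.94 (adjusted p = 0.147). It was called by edgeR (3.65, adjusted p = 0.0506), by DESeq2 (3.81, adjusted p = 0.00192), with a pseudocount of 8 (1.75) and without TH2Minus replicate 1 (3.68) or SP2Minus replicate 3 (3.29). The mature samples were all sequenced on lane 8 and the immature ones on lanes 5 and 8. Within lane 8 alone, 6 members were called in each maturation comparison, as with all libraries. The genes tested there were those kept over all samples, and the share of all genes called in that fit is not given here. Ido2 is among the 6 and, as above, lends the count no support.

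Per kilobase of merged exons, which allows genes to be set side by side, the leading enzyme gene changed with maturation. In immature groups Kmo led, at 809 ± 32.4 in thymic cDC1 and 2152 ± 195 in thymic cDC2. Il4i1 came next in immature thymic cDC2, at 1591 ± 228. In mature groups Il4i1 led, at 7538 ± 2133 in cDC1 and 10737 ± 2243 in cDC2. Of its 4080 merged exon bases, 3423 overlap Tbc1d17, so its values per kilobase carry the annotation limit given above. The runner-up was Arg2 in mature cDC1 (621 ± 168) and Aldh1a2 in mature cDC2 (684 ± 80.7), where Arg2 had 400 ± 86.4. Ido1 per kilobase reached 82.3 ± 30.1 in mature cDC1 and 41.4 ± 6.10 in mature cDC2, well under Il4i1 in both.

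**Figure D3:**
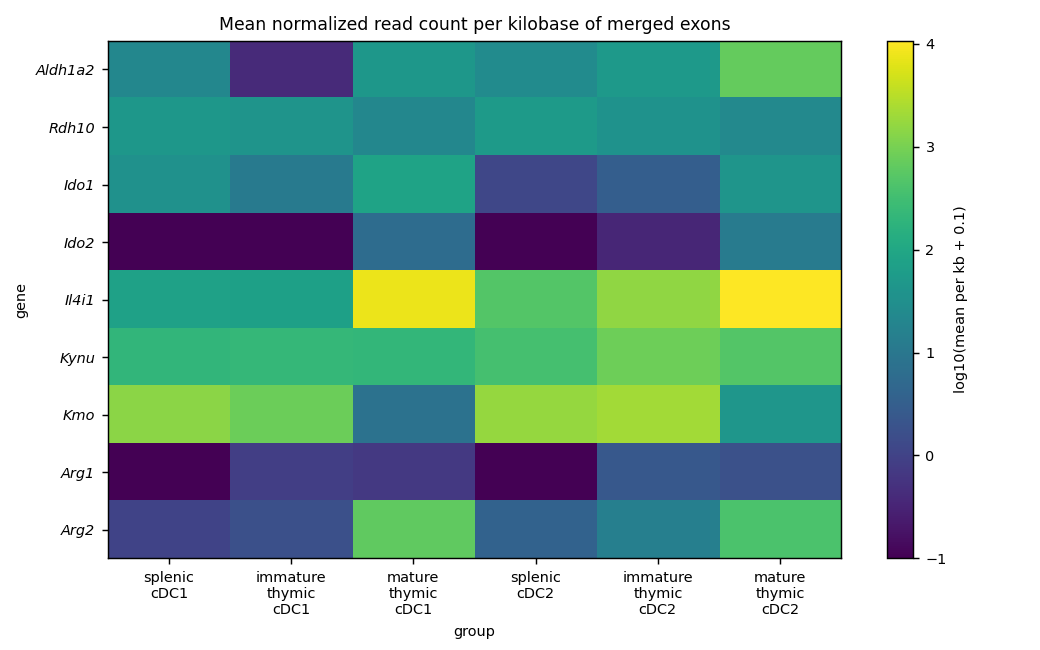
Mean normalized read count per kilobase of merged exons for the 9 genes (rows) in the 6 groups (columns), coloured on a log10 scale after adding 0.1. The brightest cells are Il4i1 in the mature groups (7538 and 10737), then Kmo in immature thymic cDC2 (2152) and splenic cDC2 (1744). Il4i1 in immature thymic cDC2 (1591) lies above Kmo in splenic cDC1 (1447) and immature thymic cDC1 (809). Il4i1 carries the annotation limit given in the text.

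Other genes of the same pathways were counted from 4 lists that hold none of the members. Beside each count stands the share of all genes tested that was called higher and lower in the same comparison, and a list whose share is near it is not set apart by its count. Of 19 tested retinoid genes, 5 rose and 5 fell with maturation in cDC1 (median -0.36; all genes 21.3% and 24.5%) and 4 rose and 5 fell in cDC2 (median -0.05; all genes 18.6% and 17.0%). Dhrs9, a retinol dehydrogenase, fell from 237 ± 73.9 to 9.41 ± 7.13 in cDC1 (-4.80 ± 0.69, adjusted p = 4.52e-06) and by a log2 fold change of -4.81 in cDC2. The retinoid X receptor Rxra fell from 3303 ± 306 to 129 ± 33.8 in cDC1 (-4.70) and from 2350 ± 150 to 472 ± 234 in cDC2 (-2.47). The retinol transporter gene Stra6l (1300002K09Rik in the files) fell from 503 ± 151 to 25.8 ± 17.4 in cDC1 (-4.36). Its mean also went from 2348 ± 634 to 780 ± 111 in thymic cDC2. The retinoic acid receptor Rara fell from 2293 ± 192 to 474 ± 147 in cDC2 (-2.32). Picked after their values were seen, since these genes all fell, risers in both subsets were the retinal dehydrogenase Aldh1a3 (4.27 and 2.30), the retinal reductase Dhrs3 (2.19 and 1.67) and the retinol dehydrogenase Rdh5 (1.88 and 2.12).

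Of the same 19, 2 were higher and 1 lower in thymus than in spleen in cDC1 (all genes 4.26% and 4.52%) and 4 higher and 2 lower in cDC2 (8.30% and 5.87%). Rxra was higher in the thymus in both (1.47 and 2.74) and Stra6l lower in both (-2.61 and -1.85), while Rara rose in cDC1 (1.93). The retinoic acid receptor Rarg was higher in cDC2 than in cDC1 in the spleen (3.47), the immature thymus (3.85) and the mature thymus (3.09). In the same 3 comparisons 6, 6 and 6 retinoid genes were higher in cDC2 (all genes 9.93%, 11.0% and 14.6%) and 3, 0 and 0 lower (6.70%, 5.42% and 4.36%).

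Of 18 tested tryptophan and kynurenine genes, 4 rose and 5 fell with maturation in cDC1 (median -0.32; all genes 21.3% and 24.5%) and 1 rose and 6 fell in cDC2 (median -0.18; all genes 18.6% and 17.0%). Ahr, the receptor that binds kynurenine and other tryptophan products, fell from 9273 ± 1498 to 1117 ± 143 in cDC1 (-3.04 ± 0.25, adjusted p = 1.92e-09) and from 7495 ± 758 to 1455 ± 506 in cDC2 (-2.43 ± 0.27, adjusted p = 2.79e-07). Its repressor Ahrr rose in cDC2 from 37.0 ± 11.2 to 224 ± 56.7 (2.58). The kynurenine aminotransferase Kyat3 (Ccbl2 in the files) fell in both subsets (-2.86 and -1.68), and the amino acid transporter Slc7a5 fell in cDC1 from 2766 ± 650 to 637 ± 162 (-2.12). Slc7a5 was higher in thymus than in spleen in cDC1 (1.28) and cDC2 (1.65). In each tissue comparison 1 gene of the list was higher and 1 lower in thymus, near the shares of all genes, and in cDC2 against cDC1, 4, 1 and 2 genes were higher and 1, 0 and 0 lower in spleen, immature thymus and mature thymus (all genes 9.93%, 11.0% and 14.6% higher, and 6.70%, 5.42% and 4.36% lower).

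Of 20 tested arginine and polyamine genes, 1 rose and 7 fell with maturation in cDC1 (median -0.24; all genes 21.3% and 24.5%) and 3 rose and 4 fell in cDC2 (median -0.14; all genes 18.6% and 17.0%). Srm, the spermidine synthase that acts downstream of ornithine, fell from 798 ± 141 to 8.00 ± 7.11 in cDC1 (-7.17 ± 0.63, adjusted p = 5.12e-09) and from 531 ± 85.5 to 55.5 ± 27.1 in cDC2 (-3.38). Gatm, which uses arginine for creatine synthesis, fell in both (-5.62 and -2.17). Asl, which makes arginine from argininosuccinate, rose in cDC2 from 777 ± 58.4 to 2958 ± 183 (1.93). Ass1, the enzyme before Asl, was higher in thymus than in spleen in cDC1 (2723 ± 515 to 8406 ± 1898, 1.62) and cDC2 (2779 ± 539 to 9962 ± 1475, 1.85). In the tissue comparisons 2 genes were higher and 0 lower in thymic cDC1 (all genes 4.26% and 4.52%), and 3 higher and 2 lower in thymic cDC2 (8.30% and 5.87%). Against cDC1, 2, 2 and 7 genes were higher and 1, 2 and 0 lower in cDC2 of spleen, immature thymus and mature thymus (all genes 9.93%, 11.0% and 14.6% higher, and 6.70%, 5.42% and 4.36% lower).

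Of 13 tested genes of the amino acid starvation response, 2 rose and 8 fell with maturation in cDC1 (median -2.13; all genes 21.3% and 24.5%) and 2 rose and 5 fell in cDC2 (median -0.69; all genes 18.6% and 17.0%). Phgdh, the entry enzyme of serine synthesis, fell from 903 ± 304 to 18.0 ± 13.2 in cDC1 (-5.89 ± 0.53, adjusted p = 7.41e-09) and from 278 ± 111 to 34.8 ± 16.2 in cDC2 (-3.00). The mitochondrial enzyme Shmt2 fell in cDC1 (-3.63), and Psat1, also of serine synthesis, in cDC2 (-2.75). The cystine transporter Slc7a11 went the other way, from 15.5 ± 6.09 to 271 ± 44.5 in cDC1 (4.12) and from 663 ± 79.9 to 3234 ± 703 in cDC2 (2.27), and was higher in cDC2 in all 3 subset comparisons (3.71, 5.41 and 3.57). Asparagine synthetase, Asns, was higher in thymus than in spleen, from 54.3 ± 16.4 to 623 ± 230 in cDC1 (3.49) and from 10.1 ± 8.77 to 285 ± 78.6 in cDC2 (4.94). In the tissue comparisons 5 genes were higher and 0 lower in thymic cDC1 (all genes 4.26% and 4.52%), and 4 higher and 1 lower in thymic cDC2 (8.30% and 5.87%). Against cDC1, 3, 1 and 3 genes were higher and 3, 3 and 0 lower in cDC2 of spleen, immature thymus and mature thymus (all genes 9.93%, 11.0% and 14.6% higher, and 6.70%, 5.42% and 4.36% lower).

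**Figure D4:**
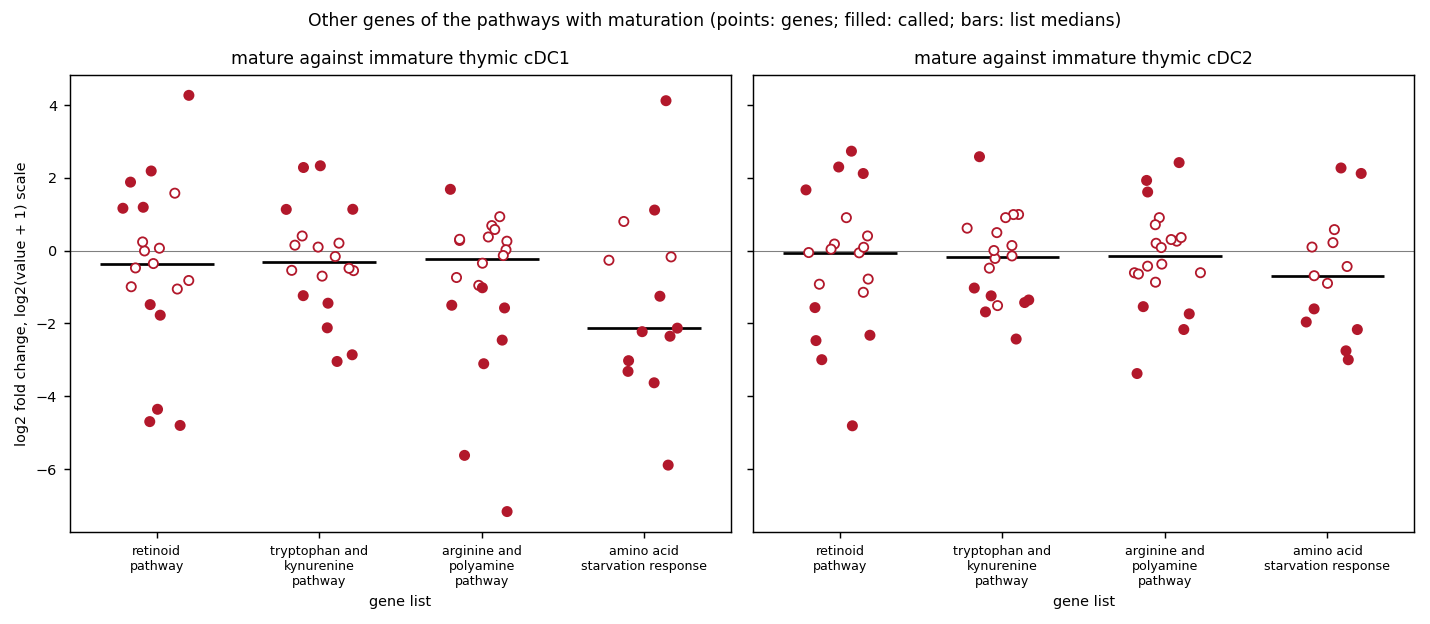
Log2 fold changes with maturation (limma, log2(value + 1) scale) of the tested genes of the 4 pathway lists in thymic cDC1 and cDC2, where points are genes, filled points were called and bars are list medians. The starvation response list has its median at -2.13 in cDC1, below the other lists, which lie between -0.36 and -0.24.

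Genes with the pattern most like each member were found by Pearson correlation of log2(value + 1) over the 20 samples, among 11280 tested genes (11281 for Ido2) with a mean of 100 or more in some group. The samples fall into 6 groups and share lanes and depth, so the correlations are descriptions only. Closest to Aldh1a2 were Erbb3 (r = 0.96), Gspt2 (0.95) and 2700081O15Rik (0.93), and to Il4i1 were Adam11 (0.98), Pdcd1lg2 (0.98), a ligand of PD-1, and Stat5a (0.97). For Kmo they were Tmem150b (0.98), Pola1 (0.98), a DNA polymerase subunit, and Utp14a (0.98), and for Arg2 Gins3 (0.97), Rragd (0.97) and Ikzf4 (0.97). Kynu was nearest to Creb5 (0.93), Il1rl2 (0.93) and Mitf (0.93), and Rdh10 to Pstpip2 (0.94), Kcnip3 (0.93) and Ryr1 (0.93). Ido1 was nearest to Tanc1 (0.92), Tubb2a (0.92) and Dclk2 (0.91), and Ido2 to Syn3 (0.99), Gm9994 (0.99) and Map6d1 (0.99), which, like Ido2, were at or near 0 in every immature group.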

How the data were processed

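RNA of sorted cDC was sequenced by the authors (TruSeq Stranded mRNA, paired-end), aligned to mm10 with STAR 2.6, counted per Ensembl gene with HTSeq-count and divided by DESeq2 1.24.0 size factors, per the labels and the study's methods; the strand setting is not given in the sources used here. The deposited unit is a signal, the normalized read count. Each value was a whole multiple of 1 read (tolerance 0.01 reads; 100% of values), which gave back the reads.

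Members and gene lists were chosen with earlier results of these data known. The 6 groups were fitted together in limma 3.58.1 (R 4.3.3, trended eBayes, pseudocount 1, 20 samples). Alternatives were edgeR 4.0.16 and DESeq2 1.42.0 on the recovered reads, other pseudocounts (0.1, 8), filters, thresholds, scaling (TMM), lanes, sample sets and omission of each sample. Scripts were tested on simulated data. Floors (3 reads per library) and 95% exact intervals cover counting error only, since reads carry no molecular identifiers. Nothing states that samples of a group were separate pools of mice, so p-values measure the spread between these samples. Positions came from GENCODE M21 (mm10) and promoters from RefSeq.

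Named in the text were all members, up to 3 called genes per list and comparison of 2 groups with the largest absolute log2 fold change and a mean of at least 100 in a group, the markers, and the 3 genes most correlated with each member. Outside this rule, the maturation risers Aldh1a3, Dhrs3 and Rdh5 were named after their values were seen. The cDC2 maturation means of Stra6l and the genes that overlap Il4i1 or Arg2 were also given outside it. Of the lists of 32, 23, 24 and 14 genes, 19, 18, 20 and 13 were tested. The marker lists for monocytes and neutrophils, plasmacytoid dendritic cells, B cells, epithelium, and fibroblasts and endothelium were also summed: in mature against immature thymic cDC1, 0, 0, 1, 1 and 0 of their genes rose and 3, 3, 0, 1 and 2 fell. In cDC2, 0, 0, 1, 3 and 0 rose and 3, 4, 1, 1 and 2 fell. Of all genes tested, 21.3% rose and 24.5% fell in cDC1, and 18.6% rose and 17.0% fell in cDC2.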

Additional observations from a re-analysis of the deposited data

Results flagged for a closer look

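Rdh10 in splenic cDC1 had its highest sample, 210.0, apart from the other 3, a gap that chance gives in about 1 in 20 groups. That share makes no allowance for the number of genes and groups looked at. The other 3 include the mean of SP1Minus libraries 4 and 5, and library 5 alone lay between that mean and 210.0. The gap therefore depends on the averaging and is not set apart from chance. The effect of maturation differed between the subsets by the test of the difference (cDC2 minus cDC1, limma log2 scale) for Il4i1 (-4.00), Arg2 (-3.81) and Kmo (1.83), so the rise of Il4i1 and Arg2 was larger in cDC1. The Kmo difference, a smaller fall in cDC2, lost its call in 20 of 26 alternatives. The effect of tissue differed for Aldh1a2 (5.80), which was lower in thymic than splenic cDC1 and not called in cDC2, and for Il4i1 (1.78) and Kynu (1.13), which were higher in thymic than splenic cDC2 and not called in cDC1.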

How the results depend on the processing

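Followed were 53 member and comparison pairs with a call, an adjusted p under 0.1 or a moderate log2 fold change. Some were far from a call, such as Arg2 between mature subsets. Of the 53, 33 were called and 23 of these were called in every alternative run for them. In all, 1091 of 1168 alternative values stayed on the same side of the threshold, a count that includes the pairs far from a call. One pair reversed: the difference in the maturation effect of Aldh1a2 became 0.53 with a pseudocount of 8. With TH1Minus replicates 3 and 4 averaged, the difference in the maturation effect of Kmo lost its call (1.84, adjusted p = 0.11, limma). A filter that kept genes at 10 or more in all samples left 3 members to test, and the number called became 1 in each maturation comparison, 0 between tissues in cDC1, 1 in the spleen, 2 among immature and 1 among mature thymic subsets, and 1 for the difference in maturation effect. Between tissues in cDC1, 2 members in place of 1 were called by edgeR, by DESeq2, with a pseudocount of 8, with only the groups compared, with all 21 libraries and with lane as a covariate. With a log2 fold change above 2, the number was 1 between tissues in cDC2 and 1 for the difference in tissue effect. Leaving out any sample kept each count of members within 1.5 times, while single members crossed the threshold: beside those given in the report, Ido1 became called between tissues in cDC2 without TH2Minus replicate 1 (2.09), Arg2 in the spleen without SP1Minus replicate 1 (1.98) or SP2Minus replicate 3 (1.95), Ido2 between mature subsets without TH1Plus replicate 3 (1.46), and Rdh10 with maturation in cDC1 without 4 single samples (-1.03 to -1.21). TMM scaling moved the median of all genes by less than 0.04 log2 units; the median of mature cDC2 against cDC1 was 0.14.

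The opening numbers of the library descriptions have no stated meaning. They were shared by 9 pairs of a cDC1 and a cDC2 sample of the same tissue and state. Of these pairs, 4 correlated over 0.1 in their deviations (range -0.15 to 0.46), so they were not taken as pairs. The number was also shared within groups (SP1Minus replicates 1 and 4, TH1Minus replicates 3 and 4) and between TH1Plus replicate 1, TH1Minus replicates 3 and 4 and TH2Minus replicate 3. With a replicate block on that number in a fit of the groups compared, 3 members were called in the spleen, against 2 without it, since Arg2 became called (1.78), and 6 among immature thymic subsets with or without the block. A block over the 4 immature groups for the difference in tissue effect, chosen after seeing the data, called 4 members with or without it, against 3 with all groups, since Kmo became called (1.16 and 1.14). No paired analysis was possible for the other comparisons because the groups of each compared pair share fewer than 2 numbers, so a blocked value would rest on 1 library of a group.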
